A study of Mus musculus with 8 samples.

Results

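A group of 8 interferon-induced genes classed as antiviral effectors was followed in primary cultured mouse microglia with and without immunoglobulin G (IgG). They were chosen by symbol as Mx1, Mx2, Rsad2, Cmpk2, Bst2, Xaf1, Apobec3 and Isg20, and all 8 were found among the 55385 genes of the deposited count table. The count of every one was high enough for all 8 to be among the 17537 genes tested. The choice of these genes used no measured value of the comparison, although it was made with earlier results of these libraries known.

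The cells were wild-type microglia, the resident macrophages of the brain, grown from the neocortex and hippocampus of newborn mice. The 4 IgG libraries came from cultures that received 10 µg/ml IgG for 24 h at day 15 in vitro (DIV15). The 4 control libraries carry the label untreated, and the methods of the study describe the control as PBS. Both groups share the genotype and the culture protocol, in which cells of several brains were pooled. Library 1 of the control group has the same date in its label as library 1 of the IgG group, and likewise for numbers 2 to 4, so the libraries fall into 4 pairs. What happened on those dates is not said, and no source says that same-group libraries came from separate animals. The p-values therefore measure a spread within these 8 libraries only. With the pair as a block, it is the spread of the change over the 4 pairs, and with no block that between libraries of a group.

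Interferons are secreted proteins that bind receptors on the cell surface and act through Janus kinases and STAT transcription factors. A complex that contains STAT2 and IRF9 binds the interferon-stimulated response element (ISRE) in front of target genes. The products of such genes interfere with separate steps of a viral life cycle, from the entry of the genome to the release of particles. Microglia respond to interferon with this programme, and several of its genes are also transcribed at a low level in unstimulated cells.

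Library totals ran from 21287816 to 23703216 counts, and levels are given as CPM, counts scaled by TMM to a common library size. A count of 0 allows up to 3 counts, or 0.124 to 0.147 CPM. Of 12 microglial markers none was at 0, and their summed level was 5541 to 5908 CPM in the control libraries and 5847 to 7021 CPM in the IgG libraries. Of the 12, Aif1 and Fcrls, passed the test, with log2 fold changes of 0.69 and 0.83 (adjusted p = 0.0331 and 0.0329). They were named after their values were seen. The T lymphocyte markers Cd3e, Cd3d and Cd8a were at 0 counts in all libraries. Oligodendrocyte lineage markers summed to 1198 to 1826 CPM in the control and 1027 to 1716 CPM in the IgG libraries, and astrocyte markers to 171 to 196 and 149 to 191 CPM. The share of mitochondrial genes was 4.85% for IgG library 1 and 5.59% for IgG library 3. It ran from 1.97% to 2.41% elsewhere. The part of these differences between libraries in the results below was not tested, but the main counts are also given for pairs 2 and 4 alone.

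The genes lie in 6 regions of the genome (GRCm38, positions from GENCODE M21). Rsad2 (chr12:26442746-26456452, minus strand) and Cmpk2 (chr12:26469204-26479837, plus strand) lie head to head, with 12751 bases between their starts. Mx1 (chr16:97447035-97462907, minus strand) and Mx2 (chr16:97535308-97560900, plus strand) are arranged in the same manner with 72400 bases between them. The others are Bst2 (chr8:71534255-71537456, minus strand), Xaf1 (chr11:72301629-72313733, plus strand), Apobec3 (chr15:79891659-79915906, plus strand) and Isg20 (chr7:78913424-78920396, plus strand).

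Promoter windows of 250 bases before and 50 after the start were present in RefSeq (GRCm38.p6) for 6 of the 8 genes, in 9 windows. Each was searched on both strands for the core of the ISRE, spelled as the letters GAAA, any pair of bases, and GAAA again. Of the 6 genes, 3 (Rsad2, Bst2 and Apobec3) held it, against 3.99% of the 27025 genes with a window. The windows of Cmpk2, Xaf1 and Isg20 held no match to these letters. The gamma-activated sequence TTCNNNGAA was present in windows of Bst2 and Isg20, and in 9.55% of all genes. In Bst2 it overlapped the ISRE letters. These are matches to letters and not measured binding sites.

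The 250 bases before the start of Rsad2 and of Bst2 are shown because they carry the ISRE letters, which are in capitals. In Rsad2 the match lies on the opposite strand, at bases -120 to -111 from the start. In Bst2 there are 2 overlapping matches, at -130 to -121 and at -124 to -115. For Apobec3 only 30 bases around the match (-140 to -131, opposite strand) are given, because other annotated transcripts of the gene begin further upstream.
Rsad2, chr12:26456453-26456702, minus strand: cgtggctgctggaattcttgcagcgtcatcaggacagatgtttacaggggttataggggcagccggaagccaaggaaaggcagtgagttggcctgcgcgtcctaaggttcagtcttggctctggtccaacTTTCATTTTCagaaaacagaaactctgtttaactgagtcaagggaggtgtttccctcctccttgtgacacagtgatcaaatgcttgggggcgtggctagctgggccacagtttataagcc
Bst2, chr8:71537473-71537722, minus strand: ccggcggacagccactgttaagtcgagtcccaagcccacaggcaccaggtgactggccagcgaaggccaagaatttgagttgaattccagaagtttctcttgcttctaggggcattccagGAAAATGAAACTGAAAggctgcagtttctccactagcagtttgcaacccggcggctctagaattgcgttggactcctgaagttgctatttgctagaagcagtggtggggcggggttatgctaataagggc
Apobec3, chr15:79892258-79892287, plus strand: catcagttagTTTCCCTTTCtctttgcgat

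In the untreated cultures the 8 genes were transcribed at very different levels. Compared per length of exon, Bst2 was at 256 ± 61.0 CPM per kb (mean ± SD, n = 4), above 98.9% of all genes tested. Rsad2 followed at 13.7 ± 7.15, Mx1 at 13.4 ± 5.41, Cmpk2 at 12.2 ± 5.56 and Xaf1 at 8.97 ± 4.71 CPM per kb. The means of neighbours among these last 4 differed by less than the SD over libraries of either gene, and those of Xaf1 and Mx2 by less than the SD of Xaf1 but more than that of Mx2. Within a library the order was steadier, since each gene of the 8 exceeded the next in all 4 control libraries, except that Rsad2 exceeded Mx1 in 2 of 4. Mx2 was at 5.30 ± 1.65, Apobec3 at 3.23 ± 0.153 and Isg20 at 2.03 ± 0.985 CPM per kb, above 33.8% of genes. The 9454 exonic bases of Apobec3 include retained introns of some annotated transcripts, which lowers its value per length.

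The control libraries also differed from each other, by an amount that depended on the gene. The highest control library exceeded the lowest by a factor of 3.79 for Rsad2, 3.64 for Xaf1, 3.16 for Cmpk2, 3.08 for Isg20 and 2.82 for Mx1. The factor was 2.29 for Mx2, 1.84 for Bst2 and 1.10 for Apobec3. In 7 of the 8 genes the control libraries ran from high to low in the order 1, 3, 2, 4, and in Isg20 in the order 3, 1, 2, 4. In all but Apobec3 this factor between control libraries exceeded the fitted fold difference between IgG and control.

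**Figure D1:**
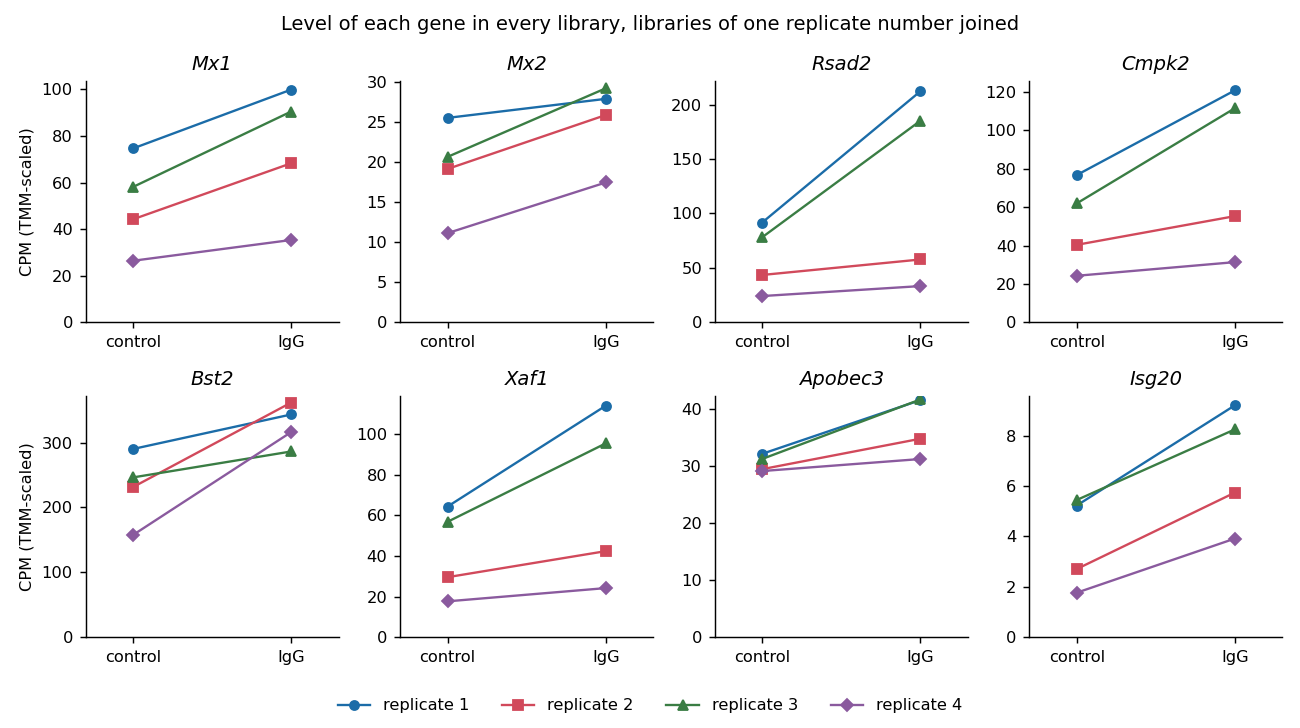
Level of each gene in CPM (linear axis from 0) in the 4 control and 4 IgG libraries, with a line for each pair of libraries of the same replicate number. All lines slope upwards, and the groups overlap in every panel.

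All 8 genes were higher with IgG in each of the 4 pairs, a pattern shown by 10.4% of all genes tested. In the fit with the pair as a block, their log2 fold changes ran from 0.28 for Apobec3 to 0.89 for Isg20 with a median of 0.56, beside -0.01 over all genes. One gene, Xaf1, passed an adjusted p-value of 0.05, and 0.393% of all genes were higher at that threshold. With the criterion of the study methods, p under 0.01 before adjustment with a log2 fold change beyond 0.5 in either direction, the count was 6 of 8, and 1.48% of all genes were higher by it. Mx2 and Apobec3 did not meet this criterion. In no gene did all IgG libraries lie above all control libraries, a separation shown by 2.60% of genes.

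Mx1 and Mx2 encode dynamin-like GTPases that trap incoming viral nucleocapsids. In many inbred mouse strains both loci carry mutations that remove the functional protein, and RefSeq lists both as transcribed pseudogenes on the reference genome, while GENCODE M21 lists Mx1 as protein coding and Mx2 as a polymorphic pseudogene. The labels name no strain, so the values describe transcripts only. Mx1 measured 74.6, 44.2, 58.1 and 26.4 CPM in control libraries 1 to 4, and 99.9, 68.3, 90.5 and 35.4 CPM in IgG libraries 1 to 4. Each IgG library was above its partner, while IgG library 4 remained below 3 of the controls. The log2 fold change was 0.53 ± 0.091 (SE), with a 95% interval of 0.32 to 0.74 and an adjusted p of 0.0621. The within-pair changes of Mx1, 0.42, 0.63, 0.64 and 0.42 on the log2 scale, had the smallest SD over pairs of the 8 genes, 0.12.

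Mx2 measured 25.5, 19.2, 20.7 and 11.2 CPM in the control libraries and 27.9, 25.9, 29.3 and 17.5 CPM with IgG. The groups overlapped, with library 4 lowest in either group. The change of Mx2 was 0.42 ± 0.115, with an interval of 0.16 to 0.69 and an adjusted p of 0.289. Unlike Mx1, it was smallest in pair 1 (0.13) and largest in pair 4 (0.64). The 2 genes share a stretch of 140 identical bases in their annotated transcripts, and 4.37% of the 50-base words of Mx1 also occur in transcripts of other genes. How reads from such stretches were counted is not stated.

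Rsad2 encodes viperin, an iron-sulfur enzyme that converts CTP into a chain terminator of viral RNA synthesis. It measured 91.7, 43.5, 78.1 and 24.2 CPM in the control libraries and 212.2, 57.7, 185.1 and 33.3 CPM with IgG. Libraries 1 and 3 stood high in both groups, and the pair changes followed the same split, with log2 values of 1.21 and 1.24 in pairs 1 and 3 and of 0.41 and 0.46 in pairs 2 and 4. The fitted change was 0.84 ± 0.164, with an interval of 0.46 to 1.22 and an adjusted p of 0.102.

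Cmpk2, the head-to-head neighbour of Rsad2, encodes a mitochondrial nucleotide kinase able to supply CTP precursors. Its level was 76.7, 40.4, 61.9 and 24.2 CPM in the control libraries and 120.8, 55.3, 111.5 and 31.4 CPM with IgG. The order of the libraries was that of Rsad2 in both groups. Cmpk2 differed by 0.59 ± 0.106, with an interval of 0.34 to 0.83 and an adjusted p of 0.0722. Pairs 1 and 3 again gave the larger changes (0.66 and 0.85), and pairs 2 and 4 the smaller ones (0.45 and 0.37).

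Xaf1, whose product binds the apoptosis inhibitor XIAP and favours cell death, was the single gene of the 8 to pass the adjusted threshold. Control libraries held 64.3, 29.5, 56.8 and 17.7 CPM, and IgG libraries 113.9, 42.4, 95.4 and 24.2 CPM. Xaf1 rose by 0.64 ± 0.10 on the log2 scale (a factor of 1.56), with an interval of 0.41 to 0.87 and an adjusted p of 0.0486. The call was close to the threshold. Without pair 1, 2 or 3 the adjusted p was 0.242, 0.263 and 0.239, without pair 4 it was 0.0186, and with no replicate block it was 0.723.

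Bst2 encodes tetherin, a membrane protein that holds budding enveloped viruses at the cell surface and is also a marker of plasmacytoid dendritic cells. It was the most abundant of the 8, with 290.0, 231.3, 246.2 and 157.5 CPM in the control libraries and 343.2, 361.6, 286.2 and 316.1 CPM with IgG. The groups came close to separation, since only control library 1 exceeded any IgG library, namely number 3. The change was 0.53 ± 0.141, with an interval of 0.20 to 0.85 and an adjusted p of 0.284. It was uneven between pairs, at 0.24, 0.64, 0.22 and 1.00, with the larger values in pairs 2 and 4. The 6 listed markers of plasmacytoid dendritic cells summed to 1.74 to 2.93 CPM in the control and 1.2 to 2.45 CPM in the IgG libraries, and Ly6d and Klk1 were at 0 counts in all of them.

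Apobec3 encodes a cytidine deaminase that mutates retroviral DNA. Its level was nearly the same in the control libraries, at 32.2, 29.5, 31.3 and 29.2 CPM, and was 41.6, 34.8, 41.7 and 31.3 CPM with IgG. IgG libraries 1, 2 and 3 lay above every control, and number 4 fell within the control range. The change of 0.28 ± 0.096, with an interval of 0.06 to 0.50 and an adjusted p of 0.405, was the smallest of the 8. Apobec3 overlaps Cbx7, on the other strand, over 100 bases at its 3′ end and D730005E14Rik on the same strand, over 1462 bases at its 5′ end. The strand setting of the counting is not stated, and it could separate only the first of these from Apobec3. Of the 50-base words in transcripts of Apobec3, 8.84% also occur in transcripts of other genes, D730005E14Rik among them, the highest share of the 8. Those 2 genes had 1776 and 739 counts over all libraries, beside 6092 for Apobec3.

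Isg20 encodes an RNA exonuclease. It was the least abundant of the 8, with 942 counts over all libraries, and measured 5.22, 2.71, 5.44 and 1.77 CPM in the control libraries and 9.20, 5.74, 8.25 and 3.91 CPM with IgG. IgG library 4 lay below control libraries 1 and 3, and the other IgG libraries lay above all controls. Isg20 had the largest fitted change, 0.89 ± 0.156, with an interval of 0.53 to 1.25 and an adjusted p of 0.0654. Its pair changes were 0.81, 1.06, 0.59 and 1.11, with the larger values in pairs 2 and 4, as in Bst2.

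The comparison rests on the pairs. With no replicate block, edgeR's quasi-likelihood test called none of the 8 genes and none of the 17537 at an adjusted p under 0.05, while 3 of the 8 (Bst2, Apobec3 and Isg20) and 1230 of all genes had an unadjusted p under 0.05. None of the 8 met the study criterion in that fit, against 0.582% of all genes that were higher by it. The fold changes themselves moved little. Rsad2 went from 0.84 to 1.04 and the median of the 8 genes from 0.56 to 0.59. Their intervals widened, and those of Mx1, Mx2, Rsad2, Cmpk2 and Xaf1 then included 0. The interval of Apobec3, the gene with the most even control libraries, was 0.05 to 0.53 without the block and 0.06 to 0.50 with it.

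**Figure D2:**
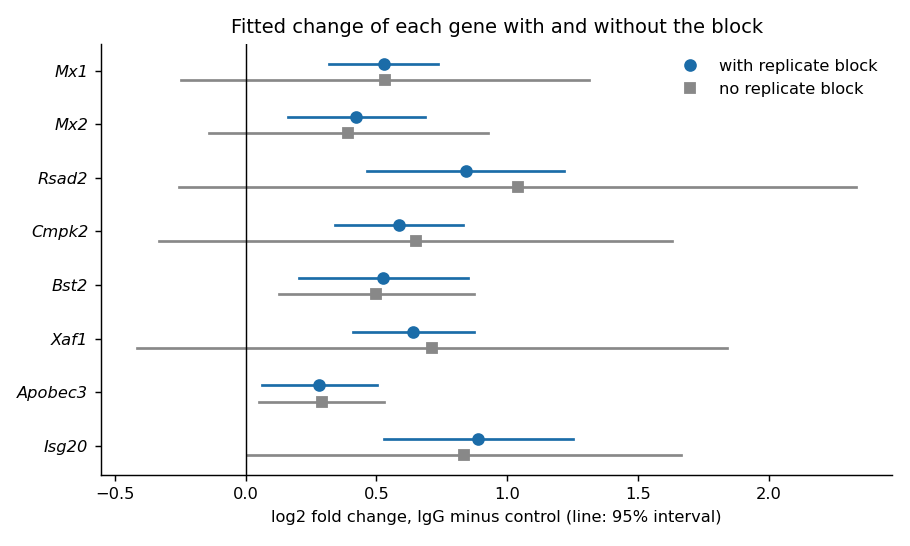
Log2 fold change of each gene, IgG minus control, with its 95% interval (horizontal line), in the fit with the replicate number as a block (circles) and in the fit with no block (squares). All intervals with the block lie above 0, and for Xaf1 the interval goes from 0.41 to 0.87 with the block to -0.41 to 1.84 without it.

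The 8 genes did not share 1 pattern across the pairs. Rsad2, Cmpk2, Xaf1 and Apobec3 had their larger changes in pairs 1 and 3, which are also the pairs whose IgG libraries have the higher mitochondrial share. Bst2 and Isg20 had their larger changes in pairs 2 and 4. The GC content of the longest annotated transcript was 44.3% in Rsad2, 45.8% in Cmpk2, 47.3% in Mx1 and 47.4% in Xaf1. It was 51.1% in Mx2, 52.6% in Apobec3, 55.3% in Bst2 and 57.4% in Isg20. Across 17503 genes the change within a pair correlated with GC content at a Spearman rho of -0.38, -0.03, -0.39 and 0.31 in pairs 1 to 4, and with exon length at 0.21, -0.03, 0.21 and -0.35. Genes of 1 pair share their libraries and are not independent replicates.

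When the trends on exon length and GC content were subtracted from each library, the changes of Bst2 became 0.47, 0.63, 0.47 and 0.79, and their SD over pairs went from 0.37 to 0.15. The SD of Isg20 went from 0.24 to 0.12 and that of Apobec3 from 0.14 to 0.042. For Rsad2 the SD went from 0.46 to 0.37, with changes of 1.1 in both pairs 1 and 3 beside 0.41 and 0.52 in pairs 2 and 4. Mx1 stayed at 0.12. This subtraction of changes was chosen after the data were seen. In the fit with the block and this correction, 6 of the 8 genes (Mx1, Rsad2, Cmpk2, Bst2, Xaf1 and Isg20) had an adjusted p under 0.05, from 0.00587 for Xaf1 to 0.0200 for Rsad2, and 1.15% of all genes were higher at that threshold. Mx2 and Apobec3 were at 0.0929 and 0.135.

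**Figure D3:**
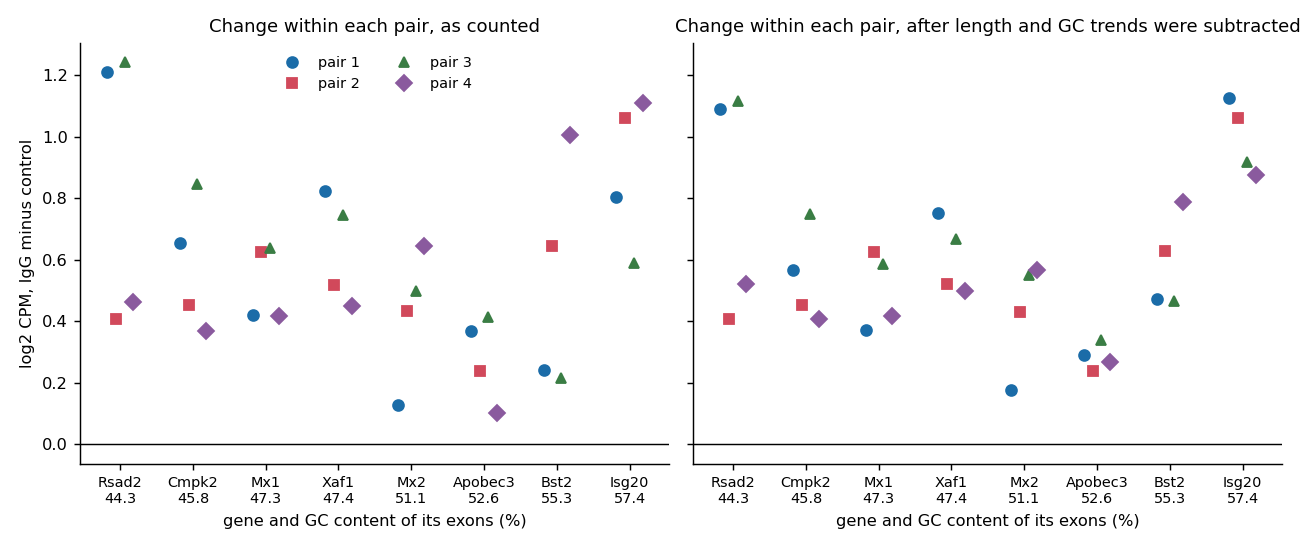
Change of log2 CPM, IgG minus control, within each of the 4 pairs as counted (left) and after trends on exon length and GC content were subtracted (right). Genes are ordered by the GC content of their longest transcript, which the axis labels as that of the exons. The points of Bst2 run from 0.22 to 1.00 on the left and from 0.47 to 0.79 on the right, while those of Rsad2 stay split between pairs 1 and 3 and pairs 2 and 4.

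In pairs 2 and 4 alone, an alternative added after the data were seen, all 8 genes were higher and Mx1, Bst2 and Isg20 passed the adjusted threshold, while Mx1, Mx2, Bst2 and Isg20 met the study criterion. Of the 17757 genes tested there, 0.867% were higher at the adjusted threshold and 1.17% by the criterion. Bst2 rose by 0.82 there (adjusted p = 8.51e-06), beside 0.53 over all pairs. Isg20 rose by 1.11 and Mx1 by 0.53 (adjusted p = 0.00390 and 0.0239). Rsad2 was at 0.44 there, just below the interval it had over all pairs, with an adjusted p of 0.135. Apobec3 was at 0.17 (adjusted p = 0.847), beside 0.28 over all pairs. Xaf1 was at 0.49 and lost its call (adjusted p = 0.0725). With only 2 pairs, the spread of each gene was taken from all genes.

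**Figure D4:**
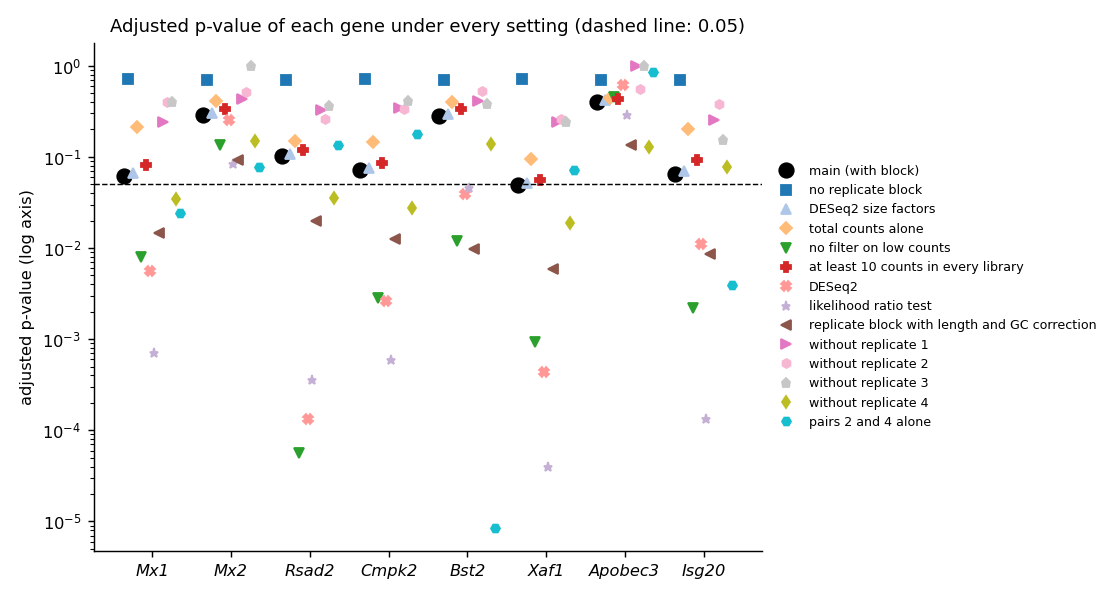
Adjusted p-value (log axis) of each gene under the main fit and 13 alternatives, with a dashed line at 0.05. No setting brings Mx2 or Apobec3 under the line, the fit with no replicate block leaves all 8 genes near 0.7, and the other 6 genes fall on both sides of it.

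Across the 8 libraries the log2 CPM values of the genes moved together to different degrees. Pearson's r between pairs of the 8 genes ran from 0.56 (Rsad2 with Bst2) to 0.996 (Cmpk2 with Xaf1), with a median of 0.887 over 28 pairs. These libraries share dates and a treatment, so r describes this set of libraries. The 5 other genes whose level was most like the standardized mean of the 8 were Oasl2 (r = 0.998), Igtp (0.997), Ifi214 (0.995), Gbp3 (0.995) and Zbp1 (0.995). Their log2 fold changes were 0.75, 0.60, 1.17, 0.69 and 1.02.

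A list of 32 other antiviral effectors was read in the same fit, all of them tested. Of these 31 were higher with IgG, 29 in all 4 pairs, and the median log2 fold change was 0.59. At an adjusted p under 0.05, 7 rose and none fell, and 18 met the study criterion. Over all genes, 10.4% were higher in all 4 pairs, 0.393% were higher at the adjusted threshold and 1.48% by the criterion. The risers included Zbp1, a sensor of Z-form nucleic acids (1.02, adjusted p = 0.00900), and Ifi44, an interferon-induced cytoplasmic protein (1.22, adjusted p = 0.00593). Ifi44 was higher in all 4 pairs, but ran from 4.42 to 101 CPM in the control and from 11.9 to 244 CPM in the IgG libraries. Ly6e, a membrane protein that blocks coronavirus fusion, rose by 0.96 (adjusted p = 0.00912), and Oasl2, a 2′-5′ oligoadenylate synthetase-like protein, by 0.75 (adjusted p = 0.0145). Ifit1 and Ifit3, which bind foreign RNA ends or partner proteins that do, rose by 1.06 and 0.89 (adjusted p = 0.0329 and 0.0145), and the RNA helicase Dhx58 rose by 0.60 (adjusted p = 0.0381). The least different were Trim25 (0.16 ± 0.087), Trim21 (0.20 ± 0.098) and Daxx (0.25 ± 0.102), none of which passed. Without pair 1, 2 or 3 the number of calls was 3, 0 and 3, without pair 4 it was 20, and in pairs 2 and 4 alone it was 13. Over all genes these settings gave 14, 0, 16, 182 and 190 calls. Of 25 of these genes with a promoter window, 12 (48.0%) held the ISRE letters.

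Of 24 interferon ligands, receptors, kinases, transcription factors and inhibitors, 20 were tested. Of these 2 rose and none fell at an adjusted p under 0.05, and 0.393% of all genes tested were higher at that threshold. Irf7, the transcription factor that amplifies interferon production, rose by 1.13 (adjusted p = 0.00593), from 55.5 to 179 CPM in the control libraries to 137 to 372 CPM with IgG. Usp18, an inhibitor of interferon receptor signalling, rose by 0.68 (adjusted p = 0.0350). The number of calls was 1, 0 and 1 without pair 1, 2 or 3, 4 without pair 4, and 2 in pairs 2 and 4 alone. The same settings gave 14, 0, 16, 182 and 190 calls over all genes. Stat2 and Irf9, of the ISRE-binding complex, were at 0.45 and 0.25 (adjusted p = 0.110 and 0.423). The receptor genes Ifnar1 and Ifnar2 were at 0.08 and 0.16, and the kinase genes Jak1 and Tyk2 at 0.16 and -0.04, none past the test. The smallest differences belonged to Irf2, Irf8 and Irf5, at -0.01, -0.01 and -0.02. Socs1, an inhibitor of Janus kinases, was lower in all 4 pairs at -0.77 ± 0.269 without passing the test (adjusted p = 0.413). Transcripts of Ifna1, Ifna2 and Ifna4 were at 0 counts in every library, and Ifnb1 had 4 counts in all 8 together, too few to be tested.

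The genes next to the 8 on the chromosome were mixed in direction. For each gene the nearest tested protein-coding gene on either side was taken, passing over any of the 8 themselves, which gave 12 genes. By edgeR's quasi-likelihood test 0 of 12 passed an adjusted p of 0.05, as in DESeq2 and in pairs 2 and 4 alone. In the main fit 1 of the 12 had an unadjusted p under 0.05. Among the 17537 genes tested, 0.393% were higher at the adjusted threshold. An unadjusted p under 0.05 was found for 1114 higher and 676 lower genes. The median log2 fold change of the 12 neighbouring genes was -0.01, with 5 higher. Around Rsad2 and Cmpk2, Rnf144a was at -0.13 ± 0.176 and Sox11 at -0.19 ± 0.127. Around Mx1 and Mx2, Bace2, 4099 bases from Mx1, was at 0.07 ± 0.139, and Prdm15 was at -0.01 ± 0.117. Mvb12a, 5466 bases from Bst2, was at 0.18 ± 0.107, and Plvap on its other side at 0.17 ± 0.425. Aen, 2215 bases from Isg20, was at -0.0012 ± 0.093 and Acan at 0.02 ± 0.340. Beside Xaf1, Med31 was at -0.08 ± 0.169 and Mybbp1a at 0.13 ± 0.084. Cbx6 was at -0.10 ± 0.087, and Cbx7, which overlaps Apobec3, was at -0.47 ± 0.180 (unadjusted p = 0.0316, adjusted p = 0.461), opposite in sign to Apobec3.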

How the data were processed

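The authors deposited whole-number counts per Ensembl gene for 4 control and 4 IgG libraries, with no normalization. RNA was enriched with oligo(dT) and sequenced. The submitters' processing notes name HISAT2 2.2.1, SAMtools 1.12, Picard 2.26.3, featureCounts, R 4.1.2 and edgeR 3.36.0 on GRCm38. The annotation, the strand setting and the handling of multiply mapped reads in counting are not given in the sources used here. Overlapping genes and near-identical copies are therefore uncertain.

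GENCODE M21 gave symbols, positions, exon lengths and GC content, and held 55144 of the 55385 identifiers. Exon length covers all annotated exons of a gene, and GC content its longest transcript only. Shfl was matched through a RefSeq synonym. In R 4.3.3, genes were filtered with filterByExpr, scaled by TMM and fitted with edgeR 4.0.16 (glmQLFit and glmQLFTest) over all 17537 genes left, with the group and the replicate number as terms and Benjamini-Hochberg adjustment. The SE is the log2 fold change divided by the square root of F. Within-pair changes are differences of log2 CPM with a prior count of 2. The study methods state no block. It was used because same-numbered libraries share a date in their labels. After subtraction of group means, a control library correlated with the IgG library of its own number at 0.35, 0.27, 0.22 and 0.28 across genes, and with those of other numbers at -0.30 to 0.16. Genes are not independent replicates. No 2 libraries of a group agreed within sampling noise (chi-square per degree of freedom at least 5.00).

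Alternatives were no block, other scalings and filters, DESeq2 1.42.0, edgeR's likelihood ratio test, a correction for lowess trends (span 0.3) on exon length and GC content, and the omission of each pair. Named genes were the 8 members, those called in each list with the 3 of smallest change, all signalling genes and neighbours, and the 5 most similar genes. Members and lists were chosen with earlier results of these data known. The script was tested on simulated data. Intervals cover the spread of the change over pairs in fits with the block, and the spread between libraries in the fit without it. Floors cover counting error only. No protein sequences were used. Values of some listed genes are not reported here.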

Additional observations from a re-analysis of the deposited data

How the results depend on the processing

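All 8 genes were higher with IgG under every alternative run, and no fold change of the 8 reversed. The number that passed did depend on the processing, and the cause was not tested. With the replicate block, 1 of the 8, 69 genes in all, 7 other effectors and 2 signalling genes passed the adjusted threshold, and 320 genes met the study criterion. With no replicate block these were 0, 0, 0, 0 and 148, and 0 of the 8 met the criterion instead of 6. Without a filter on low counts they were 6, 376, 22, 4 and 648. DESeq2 gave 6, 233, 19 and 4, the likelihood ratio test 6, 327, 20 and 4 with 528 by the criterion, and the length and GC correction with the replicate block 6, 213, 20 and 4. DESeq2 size factors and a minimum of 10 counts in every library each gave 0 of the 8. Scaling by total counts alone gave 0 of the 8, 37 genes and 1 signalling gene, with 3 of the 8 by the criterion and a median of 0.46 in place of 0.56. It moved the median of all genes to -0.11 and the split of criterion genes from 260 higher and 60 lower to 172 and 140. Leaving out 1 pair gave 0 to 4 of the 8, 0 to 182 genes, 0 to 20 effectors, 0 to 4 signalling genes and 215 to 762 genes by the criterion. The highest of these came without pair 4. Pairs 2 and 4 alone, chosen after the data were seen, gave 3 of the 8, 190 genes, 13 effectors and 2 signalling genes, with 4 of the 8 and 327 genes by the criterion. Over the 13 alternatives Xaf1 passed in 5, Mx1 in 6, Rsad2, Cmpk2, Bst2 and Isg20 in 5 each, and Mx2 and Apobec3 in none. Of the 8, Isg20 had the fewest counts, 942 over all libraries.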
